A study of Mus musculus with 4 samples.

Results

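The genes described here are the VEGF ligands Vegfa, Vegfb, Vegfc and Pgf, the receptors Kdr, Flt1 and Flt4, and the co-receptor Nrp1. They were taken by symbol from the count matrices of all 4 libraries of the series, and all 8 were found among the 30406 genes that the libraries share. Each gene was followed through the cell types of 3 omental tumors and 1 ascites, to see which cells carry the ligands and which carry the receptors.

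Vascular endothelial growth factors are secreted dimers that act on receptor tyrosine kinases of the endothelium. VEGF-A signals through VEGFR2 (Kdr) to drive the growth, survival and permeability of blood vessels, and VEGFR1 (Flt1) binds VEGF-A, VEGF-B and placental growth factor, partly as a soluble decoy that keeps ligand from VEGFR2. VEGF-C acts through VEGFR3 (Flt4) on lymphatic vessels, and neuropilin 1 (Nrp1) holds VEGF-A on VEGFR2 and also binds semaphorins. In ovarian cancer VEGF-A is known for its part in vessel growth and in the leak of fluid that forms ascites.

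Single-cell RNA was counted in droplet 3' libraries from C57BL6J mice. The KPCA.A, KPCA.B and KPCA.C cancer lines, syngeneic with these mice, each gave 1 library of omental tumors, with 4 tumors pooled per line from mice 8 weeks of age, and KPCA ascites of mice 9 weeks of age gave another. The labels describe no further treatment, spell out none of the alleles in the lines' names and name no line for the ascites. They give the cell type of every library as fallopian tube epithelial cells, the origin of the lines. With 1 library per group there is no replicate check, no test between groups can be made, and every interval below is a 95% interval of counting error alone.

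The matrices held 3118 to 5703 cell barcodes and 7420674 to 95130645 UMIs (unique molecular identifiers, each 1 captured transcript) per library, and 2643, 2579 and 3094 cells of the tumors, in the order of the lines, and 2915 of ascites were used. Their median depths were 7904, 7953, 14660 and 2077 UMIs. Cells fell into 61 clusters, of which 55 took a name from marker genes and carry "-like" for that reason. Tumor epithelial-like cells, the class nearest to the labelled cell type, made up 30.0%, 15.9% and 43.8% of the tumor cells used, and 14 of the 2915 ascites cells. Ascites thus goes against its label, since 2645 of its cells were macrophage-like. It also differed from the tumors in depth, software version, annotation and barcode set, and none of these can be told apart from the group. KPCA.A, KPCA.B and KPCA.C shared 6, 18 and 20 barcodes with other libraries. More than 15% mitochondrial UMIs removed 53.1% of the barcodes of KPCA.A and 22.5% and 24.3% of those of KPCA.B and KPCA.C. Doublets remain in all classes.

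Levels are given as CPM (counts per 1000000), from UMIs summed over the cells of a class in a library. Values are in the order KPCA.A, KPCA.B and KPCA.C unless said otherwise. Counts at the 3' end do not separate the splice forms of Vegfa, or the soluble from the membrane-bound form of Flt1, and levels are compared within a gene only.

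Vegfa, Vegfc, Pgf and Flt1 were lower together in the tumor epithelial-like cells of KPCA.B than in those of the other tumors, as given below, so the 250 bases before their outermost RefSeq start sites on GRCm38.p6 are shown. Capitals mark GCGTG, read as CACGC where it lies on the other strand, which with ACGTG is the core of the element bound by hypoxia-inducible factors. The Vegfa stretch is chr17:46032378-46032627 on the minus strand, Vegfc is chr8:54077282-54077531 on the plus strand, Pgf is chr12:85177314-85177563 on the minus strand and Flt1 is chr5:147726012-147726261 on the minus strand.
Vegfa: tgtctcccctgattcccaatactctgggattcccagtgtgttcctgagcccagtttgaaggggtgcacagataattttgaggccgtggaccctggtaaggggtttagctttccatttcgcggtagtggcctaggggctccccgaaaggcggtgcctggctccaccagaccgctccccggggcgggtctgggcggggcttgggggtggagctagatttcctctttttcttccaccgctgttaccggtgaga
Vegfc: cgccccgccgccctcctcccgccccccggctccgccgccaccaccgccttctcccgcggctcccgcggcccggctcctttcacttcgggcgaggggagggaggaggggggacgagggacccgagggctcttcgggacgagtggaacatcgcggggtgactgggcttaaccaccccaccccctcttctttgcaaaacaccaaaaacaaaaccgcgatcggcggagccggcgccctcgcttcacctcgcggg
Pgf: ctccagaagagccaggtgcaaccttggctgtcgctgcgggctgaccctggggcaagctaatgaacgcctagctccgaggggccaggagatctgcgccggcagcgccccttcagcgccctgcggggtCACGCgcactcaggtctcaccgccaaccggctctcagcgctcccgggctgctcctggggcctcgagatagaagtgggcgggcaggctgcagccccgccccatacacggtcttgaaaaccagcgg
Flt1: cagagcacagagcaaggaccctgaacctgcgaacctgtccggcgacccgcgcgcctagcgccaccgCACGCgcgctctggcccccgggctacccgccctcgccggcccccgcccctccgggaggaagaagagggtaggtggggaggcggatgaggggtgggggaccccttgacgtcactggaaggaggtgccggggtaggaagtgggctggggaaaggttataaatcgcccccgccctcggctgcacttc
Both Pgf and Flt1 hold 1 match, which starts at -124 and -184 from the start site, and the stretches of Vegfa and Vegfc hold none. On both strands, ACGTG lies in 16.6% and GCGTG in 28.2% of 32851 RefSeq windows of this length, and 38.6% hold either. All 8 genes have an entry, and Vegfa and Pgf have a further start site inside the gene. The inner Vegfa window holds 1 match of each, and the inner Pgf window holds none. Vegfb and Kdr hold 2 GCGTG matches each, Nrp1 holds 1 and Flt4 none. A match is a description of letters and no sign of a bound site, and a window without one says only that the letters are not in it.

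Vegfa (17:46016993-46032369, minus strand, GRCm38), the main ligand for blood vessels, was counted at its highest in fibroblast-like and tumor epithelial-like cells of KPCA.A and KPCA.C and was lower in nearly every class of KPCA.B. In fibroblast-like cells the level was 385 CPM (364 to 406, 166 cells), 71.6 CPM (58.2 to 87.0, 73 cells) and 414 CPM (396 to 433, 114 cells). In tumor epithelial-like cells it was 351 CPM (344 to 357, 10781 UMIs), 87.0 CPM (81.6 to 92.6, 990 UMIs) and 291 CPM (287 to 296, 18594 UMIs). Macrophage-like cells held 228 CPM (216 to 240), 15.3 CPM (12.9 to 18.1) and 268 CPM (259 to 276). In these 3 classes the intervals of KPCA.B lay below those of both other tumors. Neutrophil-like cells of KPCA.A reached 301 CPM (245 to 366, 100 UMIs), and 20 of them in 1 cluster held 38 UMIs at 1592 CPM, against 113 to 257 CPM in the other neutrophil-like clusters. Pancreatic acinar-like cells of KPCA.A were at 323 CPM from 33 UMIs. Their interval overlapped those of its fibroblast-like, tumor epithelial-like, neutrophil-like, NK cell-like, duct-like and macrophage-like cells. In KPCA.B the intervals of neutrophil-like, duct-like, tumor epithelial-like, fibroblast-like and plasma cell-like cells formed a chain of overlaps at the top. Endothelial-like cells, which carry the receptors, were low in Vegfa at 11.3, 4.13 and 10.497 CPM from 6, 2 and 4 UMIs.

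By number of transcripts rather than level, tumor epithelial-like cells were the first source of Vegfa in each tumor. They held 73.7%, 54.5% and 73.3% of its UMIs, beside 68.0%, 30.0% and 71.0% of all UMIs. Macrophage-like cells held 9.09%, 7.76% and 14.9% of the Vegfa UMIs and fibroblast-like cells 9.02%, 5.50% and 7.95%. In KPCA.B the second source was plasma cell-like cells, with 28.3% of the Vegfa UMIs from 12.7% of the cells and 22.5% of all UMIs. Their level of 60.5 CPM (55.4 to 65.97, 515 UMIs) lay below that of the tumor epithelial-like cells of the same tumor.

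Free RNA from lysed cells adds UMIs to every droplet, so shares of cells with a Vegfa UMI were set beside those of pooled B, T, NK and plasma cell-like cells. With every cell thinned to 1000 UMIs, 28.9%, 8.84% and 22.7% of tumor epithelial-like cells kept a Vegfa UMI (87.4%, 46.0% and 72.3% before thinning, at median depths of 36621.5, 23107 and 47690 UMIs). For macrophage-like cells the thinned shares were 19.2%, 1.44% and 20.1% (46.7%, 10.8% and 65.4% before, at 5813, 12197.5 and 10526 UMIs). Lymphocytes gave 3.92%, 1.84% and 6.19% (22.6%, 15.9% and 26.9% before), with medians of 2234 to 3902 UMIs in B cell-like and 10854.5 to 25341.5 in plasma cell-like cells. The macrophage-like shares of KPCA.A and KPCA.C were above the lymphocyte shares and that of KPCA.B was not. In KPCA.B, however, the pooled share comes mostly from plasma cell-like cells, at 5.52% after thinning, against 0.350% of B cell-like cells and 0 of 225 T cell-like cells (3 cells would be 1.33%). The thinned macrophage-like share there (0.663% to 2.72%) and the B cell-like share (0.0424% to 1.26%) overlapped in their intervals. In level, the 15.3 CPM of the macrophage-like cells lay above the 2.07 CPM (0.672 to 4.83) of the B cell-like cells and the 0 UMIs of the T cell-like cells, for which 3 UMIs would be 2.74 CPM. How much of this low level is free RNA was not tested. Per 1000 UMIs of the 12 tumor epithelial markers, macrophage-like cells held 1688, 478 and 1981 Vegfa UMIs and tumor epithelial-like cells 48.6, 16.8 and 82.3. NK cell-like cells held 1750, 667 and 1583, plasma cell-like cells 585, 412 and 455, and B cell-like cells 154, 29.6 and 286. The NK cell-like values rest on few marker UMIs in 12, 73 and 24 cells. Macrophage-like cells lay above B and plasma cell-like cells in each tumor, though close to the plasma cell-like cells in KPCA.B. The ratio did not set them apart from NK cell-like cells, and the source of these Vegfa UMIs was not tested. The tumor markers themselves summed to 135, 32.1 and 135 CPM in macrophage-like cells, with 11, 9 and 11 of 12 detected, and to 7212, 5164 and 3543 CPM in tumor epithelial-like cells.

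**Figure D1:**
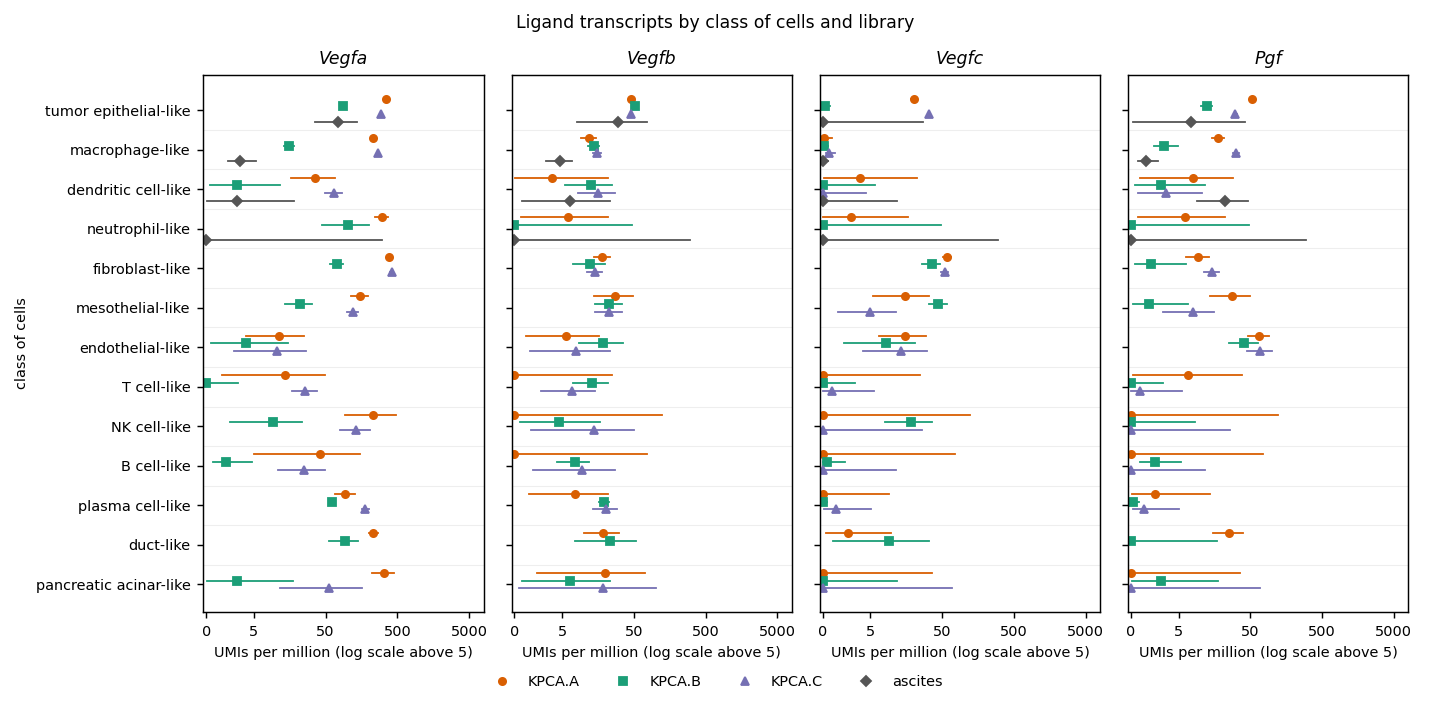
Level of each VEGF ligand by cell class and library, in CPM on a log scale, as points with 95% counting intervals. Vegfa lies lower in KPCA.B (87.0 CPM in tumor epithelial-like cells, 71.6 in fibroblast-like and 15.3 in macrophage-like cells) than in KPCA.A (351, 385 and 228 CPM) and KPCA.C (291, 414 and 268 CPM), while Vegfb differs little between the tumors.

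Vegfb (19:6982473-6987651, minus strand), a ligand of Flt1 linked to the survival of vessels and to lipid uptake, was highest in tumor epithelial-like cells and nearly level between the tumors. It was counted there at 44.8 CPM (42.5 to 47.3), 51.0 CPM (46.9 to 55.3) and 45.1 CPM (43.4 to 46.7), and KPCA.A and KPCA.C overlapped in their intervals. Macrophage-like cells held 11.6, 13.8 and 15.5 CPM, and fibroblast-like cells 18.1, 12.2 and 14.2 CPM. Tumor epithelial-like cells gave 86.6%, 58.1% and 87.8% of the Vegfb UMIs.

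Vegfc (8:54077606-54187096, plus strand), the lymphatic ligand, was nearly missing from the tumor epithelial-like cells of KPCA.B alone among the tumors. The level was 20.1 CPM (18.6 to 21.8, 619 UMIs), 0.264 CPM (0.0544 to 0.770, 3 UMIs) and 32.7 CPM (31.3 to 34.2, 2087 UMIs). Its share of cells with a UMI was 33.6%, 0.733% and 48.2%. The stroma of KPCA.B still held the transcript. Fibroblast-like cells had 58.3, 35.8 and 54.2 CPM (200, 50 and 264 UMIs), and mesothelial-like cells had 14.99, 44.2 and 4.91 CPM (6, 47 and 5 UMIs), with the interval of KPCA.B (32.4 to 58.7) above that of KPCA.C and overlapping that of KPCA.A (5.50 to 32.6). The source of Vegfc therefore differed by tumor. Tumor epithelial-like cells held 68.2% of its UMIs in KPCA.A and 85.3% in KPCA.C, against 2.14% in KPCA.B, where fibroblast-like cells held 35.7% and mesothelial-like cells 33.6%. Macrophage-like cells held 1, 1 and 10 UMIs in all.

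Pgf (12:85166635-85177790, minus strand) encodes placental growth factor, which binds Flt1. It was counted in tumor epithelial-like cells at 52.8 CPM (50.3 to 55.5), 12.2 CPM (10.3 to 14.4) and 30.7 CPM (29.4 to 32.1), and the intervals of the tumors did not overlap. Endothelial-like cells, which are also known to make this ligand, held 65.9 CPM (45.9 to 91.6), 41.3 CPM (25.2 to 63.8) and 68.2 CPM (44.6 to 99.98), and these intervals overlapped. Those UMIs came from 4, 3 and 4 cells. Macrophage-like cells held 17.8, 3.48 and 31.9 CPM. Few cells carried most of the counts. The tenth of the tumor epithelial-like cells with the most Pgf UMIs held 81.7%, 82.0% and 86.0% of them, against 39.0%, 61.2% and 41.0% for Vegfa. Of the 32 Pgf UMIs in macrophage-like cells of KPCA.B, 21 came from 1 cell. A small unnamed cluster led by Tagln and Col1a1 had 267 CPM of Pgf in KPCA.A and 69.4 CPM in KPCA.C, with Vegfa at 859 and 359.6 CPM.

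**Figure D2:**
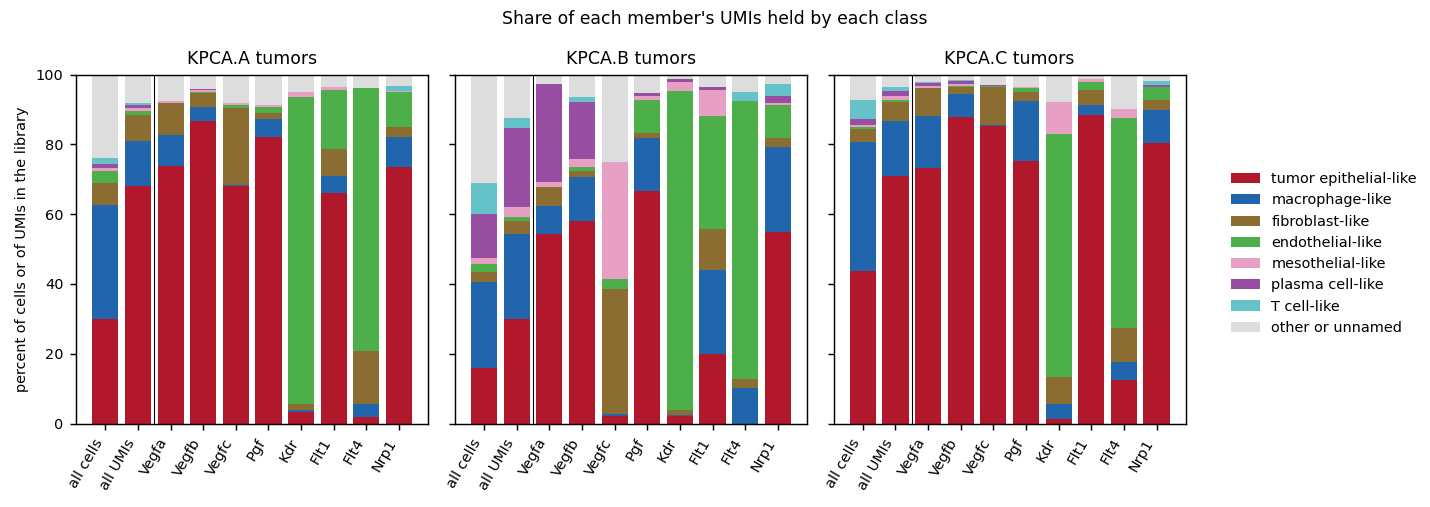
Share of the UMIs of each gene that lies in each cell class, in percent, for the 3 tumors. Tumor epithelial-like cells hold 73.7%, 54.5% and 73.3% of Vegfa and 68.2%, 2.14% and 85.3% of Vegfc, and endothelial-like cells hold 87.9%, 91.5% and 69.5% of Kdr.

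Kdr (5:75932827-75978458, minus strand), the main signalling receptor for VEGF-A, lay mostly in endothelial-like cells. They were 92, 58 and 21 cells, 3.48%, 2.25% and 0.679% of the cells used, and held 87.9%, 91.5% and 69.5% of the Kdr UMIs. Their level was 1397 CPM (1298 to 1501), 1325 CPM (1225 to 1432) and 916 CPM (822 to 1017), with KPCA.C below the other 2 intervals, which overlapped. Mesothelial-like cells came next at 27.5, 15.97 and 45.1 CPM, and tumor epithelial-like cells held 0.911, 1.32 and 0.0941 CPM. Of the 22 Kdr UMIs in macrophage-like cells of KPCA.C, 16 came from 1 cell.

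Flt1 (5:147561604-147726011, minus strand), the receptor that binds VEGF-A, VEGF-B and placental growth factor, was highest in endothelial-like cells and was also counted in tumor epithelial-like, fibroblast-like and macrophage-like cells. In endothelial-like cells it stood at 2364, 1910 and 1420 CPM (1256, 925 and 541 UMIs). In tumor epithelial-like cells it was 159 CPM (154 to 163), 49.8 CPM (45.8 to 54.1) and 305 CPM (301 to 309), with intervals that lay apart. Because tumor epithelial-like cells are many, they held 65.97%, 19.9% and 88.4% of the Flt1 UMIs, against 16.996%, 32.4% and 2.46% in endothelial-like cells. Endothelial-like cells were the first source in KPCA.B alone of the tumors.

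Fibroblast-like cells held Flt1 at 163, 241 and 193 CPM and macrophage-like cells, in which the receptor is known as a marker of recruited myeloid cells, at 64.6 CPM (58.2 to 71.4), 74.7 CPM (69.2 to 80.5) and 43.8 CPM (40.4 to 47.4). Thinned to 1000 UMIs, 7.35%, 5.62% and 4.78% of macrophage-like cells and 13.8%, 3.05% and 21.2% of tumor epithelial-like cells had a Flt1 UMI, against 1.96%, 0% (0 of 1195 cells, where 3 cells would be 0.251%) and 0.326% of lymphocytes (before thinning 23.2%, 29.2% and 25.5%, 72.4%, 30.1% and 69.6%, and 2.83%, 0.997% and 3.24%). The shares of both classes were thus above the lymphocyte share in every tumor. In KPCA.A that share rests on few cells (16 B, 12 NK, 46 T and 32 plasma cell-like cells before thinning). Whether the macrophage-like share there can be separated from it was not tested. Per 1000 UMIs of 12 endothelial markers, Flt1 gave 323, 282 and 205 UMIs in endothelial-like cells, 719, 2282 and 510.3 in macrophage-like cells and 991, 278 and 3080 in tumor epithelial-like cells. The tumor epithelial-like value of KPCA.B was close to that of its endothelial-like cells, and the other values were above those of the endothelial-like cells of their tumor. Pancreatic acinar-like cells, with few Flt1 UMIs, also gave 500, 1000 and 500, and B cell-like cells gave 71.4, 10.6 and 19.2. The part of free RNA in these counts was not tested.

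Flt4 (11:49609263-49652739, plus strand), the VEGF-C receptor of lymphatic vessels, was rare, with 53, 39 and 40 UMIs in all cells used of a tumor. Endothelial-like cells held 40 of the 53, 31 of the 39 and 24 of the 40, at 75.3 CPM (53.8 to 103), 64.0 CPM (43.5 to 90.8) and 63.0 CPM (40.4 to 93.7), and the intervals overlapped. These were not lymphatic cells by their markers. Over the 171 endothelial-like cells of the tumors, Prox1 had 1 UMI, Pdpn 2 and Lyve1 4, while Ccl21a, Mmrn1 and Reln had 0. All 53 cells with a Flt4 UMI also had a Flt1 UMI, and 52 of them had a Kdr UMI. Kdr and Flt1 were counted together in 142 of the 171 cells (83.0%), and Kdr and Nrp1 in 131.

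Nrp1 (8:128358604-128503363, plus strand), the co-receptor, stood in endothelial-like cells at 723, 737 and 748 CPM from 384, 357 and 285 UMIs, nearly the same in each tumor. Tumor epithelial-like cells held 90.4 CPM (87.0 to 93.8), 179 CPM (171 to 187) and 98.8 CPM (96.4 to 101), so KPCA.B was the high tumor here, unlike for Vegfa. Macrophage-like cells showed the same order of KPCA.B over the others at 55.8 CPM (49.9 to 62.2), 98.6 CPM (92.3 to 105) and 53.7 CPM (49.9 to 57.6). T cell-like cells, some of which are known to carry neuropilin 1 as regulatory T cells, held 384 CPM (291 to 498, 57 UMIs), 114 CPM (95.2 to 136) and 93.0 CPM (75.2 to 114). Since T cells express the gene, B and plasma cell-like cells gave the background, with 0% (0 of 47 cells, where 3 cells would be 6.38%), 0.334% and 0.855% of cells after thinning (8.33%, 6.31% and 5.98% before). Macrophage-like cells had 4.78%, 10.6% and 5.15% (23.7%, 54.1% and 33.4% before) and T cell-like cells 25%, 12.4% and 7.78%. These were above the background except for the macrophage-like share of KPCA.A, which the 47 background cells of that tumor cannot separate from it.

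**Figure D3:**
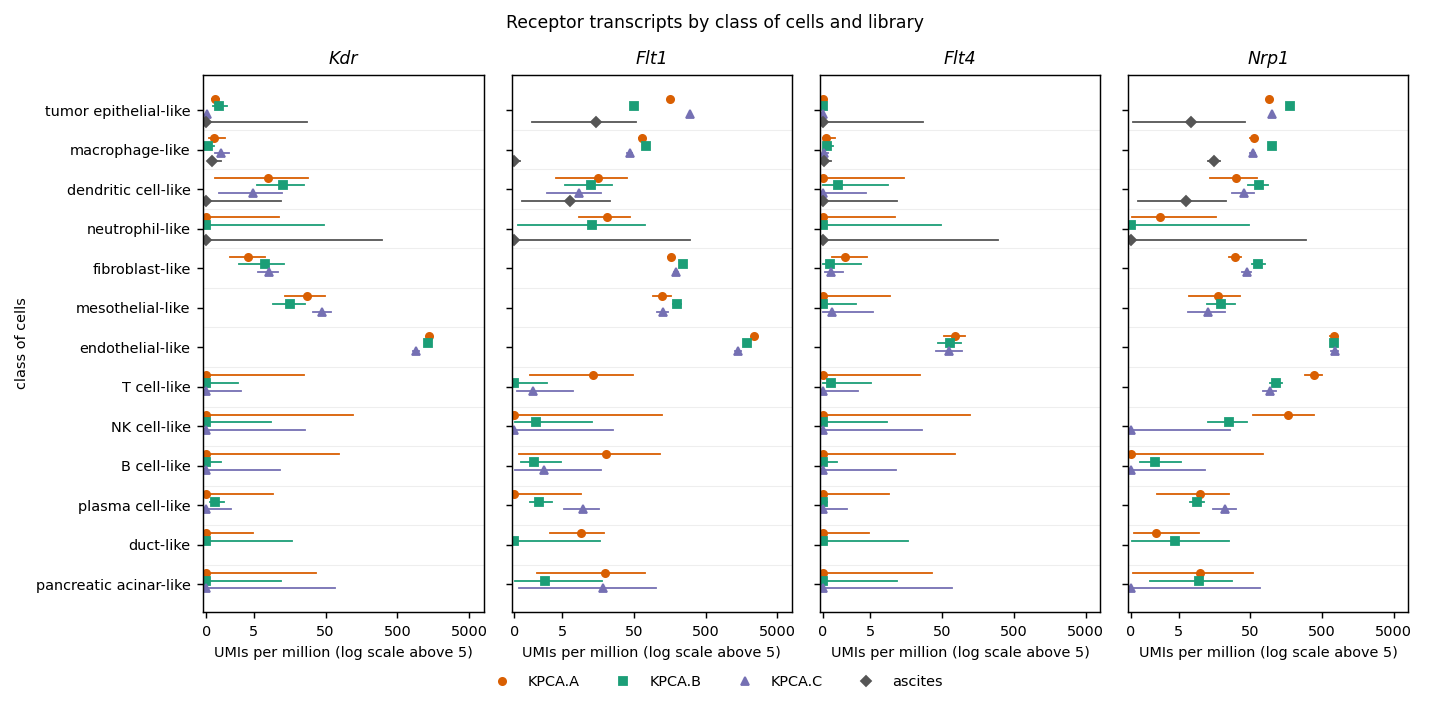
Level of each VEGF receptor and of Nrp1 by cell class and library, in CPM on a log scale, as points with 95% counting intervals. Kdr and Flt4 lie mostly in endothelial-like cells (Kdr 1397, 1325 and 916 CPM), whereas Flt1 is also counted in tumor epithelial-like cells (159, 49.8 and 305 CPM) and Nrp1 in most classes.

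Within the endothelial-like cells the receptors varied between sub-clusters by more than between tumors. A sub-cluster high in capillary genes (22 cells of KPCA.A and 13 of KPCA.B, median of 3207 UMIs) held Kdr at 3689 and 4827 CPM and Flt1 at 5834 and 6522 CPM. A sub-cluster high in tip cell and venous genes (15, 18 and 10 cells, median of 18401 UMIs) is called the tip-gene one below. It held Kdr at 497, 831 and 785 CPM and Flt1 at 818, 1222 and 1008 CPM. Their state markers differed too. Esm1, Apln and Angpt2, known from the tips of growing vessels, were at 839.8, 615 and 502 CPM in the second over the tumors. In the first they were at 148 CPM, 16.5 CPM and 0 UMIs. Of the other tip genes, Cxcr4, Kcne3 and Adm were also higher in the second. Plaur was at 39.9 against 33.0 CPM in the first, and Cd34 at 1017 against 1096 CPM. The venous genes Selp, Vwf and Nr2f2 were at 107, 328 and 125 CPM in the second. In the first, Selp and Vwf had 0 UMIs and Nr2f2 was at 57.7 CPM. The capillary genes Rgcc and Car4 were at 236 and 66.5 CPM in the second and 1500.2 and 609.97 CPM in the first. Pgf was counted in the tip-gene sub-cluster at 127, 51.9 and 72.7 CPM, in 3 of its 15, 2 of its 18 and 3 of its 10 cells, and had 0 UMIs in the capillary-gene sub-cluster of KPCA.A and KPCA.B, where 3 UMIs would make 42.9 and 70.6 CPM. Nrp1 was also higher in the capillary-gene sub-cluster (1529.95 and 1789.5 CPM) than in the tip-gene one (339.9, 566 and 697.5 CPM). The sub-clusters differ in depth, and the part of doublets and free RNA in these values was not tested.

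The first comparison between lines took tumor epithelial-like cells, with a gene called where the ratio of levels, with 5 CPM added to each, was at least 2-fold and both cell sums together held 50 UMIs. The 3 comparisons share libraries and are not independent. KPCA.B lay below both others in Vegfa, Vegfc, Pgf and Flt1. Against KPCA.A, KPCA.B was 4.03-fold lower in Vegfa (3.78 to 4.31), 4.33-fold lower in Pgf (3.64 to 5.18) and 3.18-fold lower in Flt1 (2.92 to 3.48), and the Vegfc ratio was 76.4 (26.0 to 372, 3 UMIs in KPCA.B). Vegfb was 1.14-fold higher (1.03 to 1.25) and Nrp1 1.98-fold higher (1.87 to 2.10), which was under the limit after 5 CPM were added. Thus 4 of the 6 genes measured were called lower, where 2.67% of 12144 genes were, and 0 of 6 higher, where 3.01% were. The median log2 ratio was -1.66 over the 6 and 0.03 over all genes.

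KPCA.C over KPCA.B gave 3.35-fold for Vegfa (3.14 to 3.58), 2.52-fold for Pgf (2.12 to 3.01), 6.12-fold for Flt1 (5.63 to 6.67) and a ratio of 124 for Vegfc (42.4 to 602, 3 UMIs in KPCA.B). Here 4 of 6 were called higher, where 4.62% of 12920 genes were, and Nrp1 was at 0.552-fold. Between KPCA.C and KPCA.A, 0 of 6 were called, where 2.42% of genes were called higher and 3.16% lower. Flt1 was 1.92-fold higher in KPCA.C (1.86 to 1.99) and Vegfc 1.62-fold higher (1.48 to 1.78), whereas Pgf was at 0.582-fold. The Vegfc call of KPCA.B over KPCA.A ended with 20 CPM added (log2 ratio -0.99) or with the mean over cells (-0.87), and so did the Pgf call of KPCA.C over KPCA.B (0.66 and 0.93).

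The clusters behind these sums differ by tumor, so the members were also read within single clusters, an alternative chosen after seeing the data. In cluster 6, which held 408, 153 and 100 tumor epithelial-like cells, Vegfa stood at 407, 79.8 and 326 CPM, so KPCA.B was 5.10-fold below KPCA.A (4.60 to 5.66). In the cycling cluster 9, led by Ube2c, it stood at 220.2, 97.1 and 201 CPM, a 2.27-fold gap (2.00 to 2.57). Cluster 17, led by Epcam, had 364 CPM in KPCA.A and 84.5 CPM in KPCA.B, 4.31-fold lower (3.79 to 4.91). Vegfa of KPCA.B was thus lowest in each cluster it shared with the others. Vegfc had 0 UMIs in KPCA.B in clusters 6 and 9, which places it at least 37.8-fold and at least 30.9-fold below KPCA.A, taking 3 UMIs per sum as the floor. Flt1 was 3.20-fold, 3.07-fold and 11.4-fold lower in KPCA.B relative to KPCA.A in clusters 6, 9 and 17.

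The difference of KPCA.C from the others in Flt1 did not hold in every cluster. In cluster 6 Flt1 was at 214, 66.9 and 128 CPM, below KPCA.A, and the call of KPCA.C over KPCA.B ended (log2 ratio 0.89). In cluster 9 it was at 157, 51.0 and 223 CPM. Cluster 8, with 598 of its cells from KPCA.C and 15 from KPCA.A, had 333 and 403 CPM. Pgf behaved in the same way, with 65.1, 17.4 and 23.3 CPM in cluster 6, where its call ended too (0.33). Nrp1 was higher in KPCA.B than in KPCA.A in each of clusters 6, 9 and 17, by 2.22-fold, 1.51-fold and 2.04-fold.

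**Figure D4:**
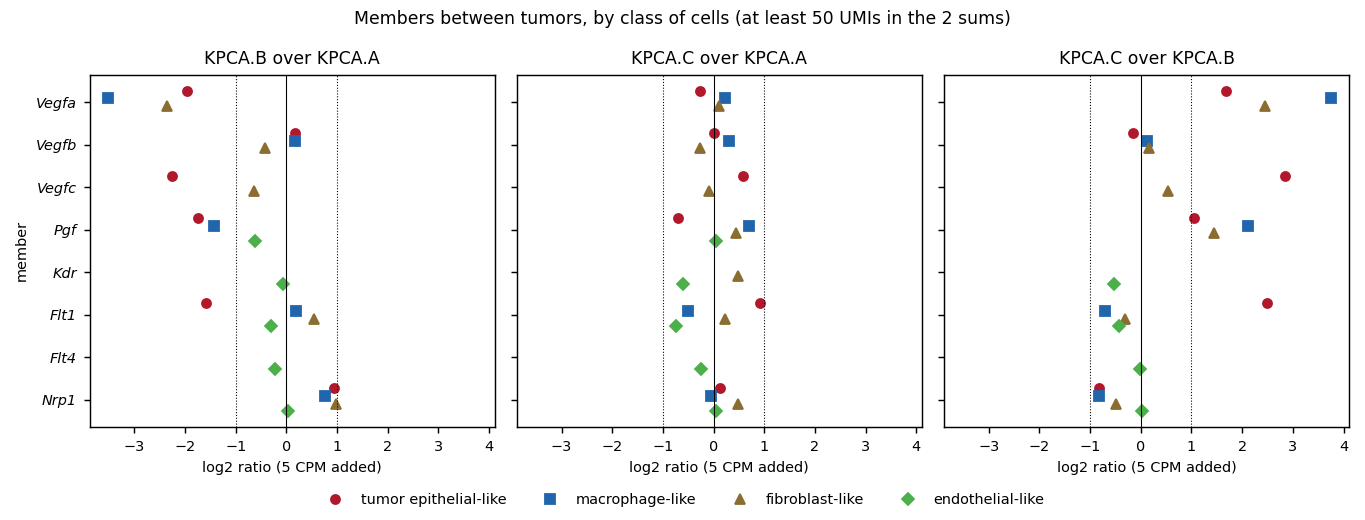
Log2 ratio of each gene between tumors (5 CPM added) in tumor epithelial-like, macrophage-like, fibroblast-like and endothelial-like cells, with the 2-fold limit drawn. In tumor epithelial-like cells KPCA.B lies beyond the limit against KPCA.A in Vegfa (-1.95), Vegfc (-2.26), Pgf (-1.75) and Flt1 (-1.58), and no gene passes it in endothelial-like cells.

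In macrophage-like cells Vegfa and Pgf passed the limit and Vegfb, Flt1 and Nrp1 did not. Vegfa of KPCA.B, in whose low level the part of free RNA was not tested, was 14.9-fold below KPCA.A (12.5 to 17.8) and 17.5-fold below KPCA.C (14.7 to 20.8). Pgf of KPCA.B was 5.12-fold below KPCA.A (3.42 to 7.86) and 9.17-fold below KPCA.C (6.40 to 13.6). The lower calls of KPCA.B against KPCA.A were 2 of 5 genes, where 3.15% of 10015 genes were called, and the higher calls of KPCA.C over KPCA.B were again 2 of 5, where 3.16% were. Between KPCA.C and KPCA.A it was 0 of 5, where 0.957% of genes were called higher and 0.677% lower. The medians over the 5 genes (0.18, 0.12 and 0.23) stayed near those of all genes (0.03, -0.07 and -0.04). Flt1 was at 1.16-fold and Nrp1 at 1.77-fold (1.55 to 2.01) in KPCA.B over KPCA.A, and at 0.587-fold and 0.544-fold in KPCA.C over KPCA.B. Vegfb lay between 1.12-fold and 1.33-fold in the 3 comparisons.

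Most macrophage-like cells came from different clusters in each tumor. Cluster 2, with Arg1 and Mmp12 among its leading genes, held 448, 160 and 215 cells, cluster 4 (Arg1, Pf4) 138, 6 and 583, cluster 10 (Chil3, Retnla) 38, 329 and 113, and the Ccr2-high cluster 13 held 92, 108 and 131. Vegfa was 216, 30.1 and 266.5 CPM in cluster 2, 183, 8.77 and 116.5 CPM in cluster 10 and 65.1, 4.09 and 142 CPM in cluster 13. KPCA.B was the lowest in each, 7.17-fold below KPCA.A in cluster 2 (5.71 to 9.12) and 20.8-fold below it in cluster 10 (13.4 to 32.4). The size of the gap in the whole class thus depends on which cluster is read. Vegfa of cluster 4 was 394 CPM in KPCA.A and 362 CPM in KPCA.C.

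Pgf in macrophage-like cells lay mostly in cluster 4, at 71.3 CPM in KPCA.A and 56.0 CPM in KPCA.C, a cluster with 6 cells in KPCA.B. In cluster 10 it was 4.46, 4.11 and 1.06 CPM and in cluster 13 it was 4.20, 3.07 and 3.98 CPM, so the calls of Pgf ended there, with log2 ratios of KPCA.B over KPCA.A of -0.05 and -0.19, and KPCA.C over KPCA.B turned to -0.59 in cluster 10. In cluster 2 the levels were 9.77, 1.86 and 22.5 CPM. Nrp1 was 52.9, 82.5 and 39.7 CPM in cluster 2 and 50.4, 112.5 and 45.4 CPM in cluster 13, with KPCA.B highest, but 120.3, 106 and 51.3 CPM in cluster 10, where it was not. Flt1 was 70.4, 102 and 58.5 CPM in cluster 2 and 53.5, 48.3 and 15.9 CPM in cluster 10.

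**Figure D5:**
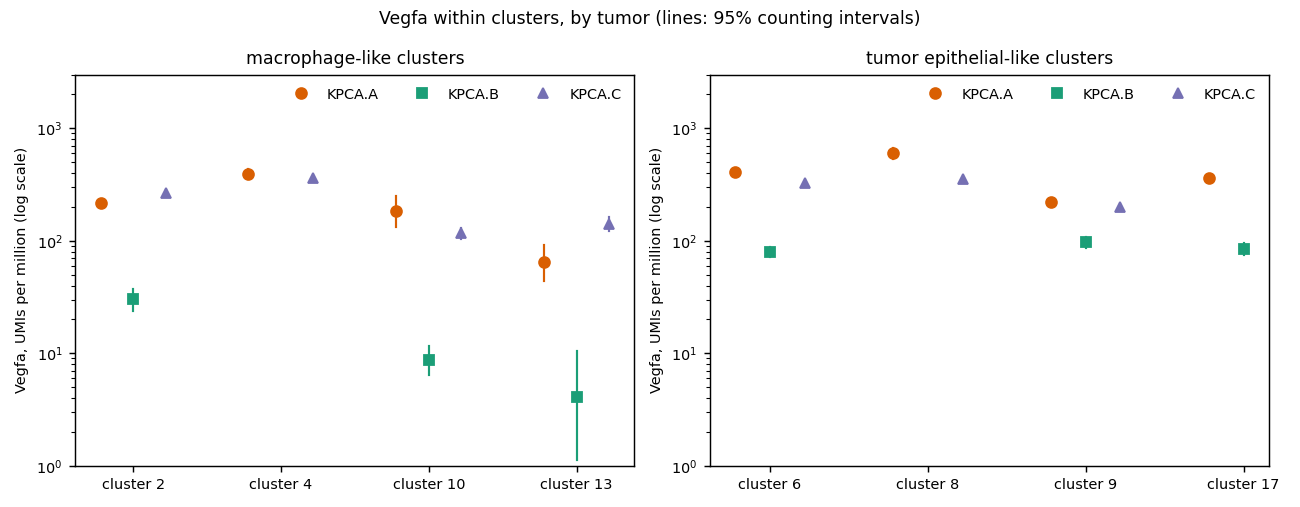
Vegfa level within single macrophage-like and tumor epithelial-like clusters, by tumor, in CPM on a log scale with 95% counting intervals. In each cluster shown for all 3 tumors KPCA.B is lowest, for example 30.1 CPM against 216 and 266.5 CPM in macrophage-like cluster 2.

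Fibroblast-like cells repeated the pattern for Vegfa. KPCA.B was 5.38-fold below KPCA.A (4.39 to 6.66) and 5.79-fold below KPCA.C (4.73 to 7.15). Vegfa was the 1 of 5 genes called lower against KPCA.A, where 3.48% of 8218 genes were, and KPCA.C over KPCA.B had 2 of 6 called higher, where 4.12% of 8887 were. The other gene was Pgf, with a ratio of 6.70 (2.20 to 33.3) from 3 UMIs in KPCA.B and 70 in KPCA.C, of which 2 cells held 56. Its call ended when the highest doublet scores were removed (log2 ratio 0.95) and with 20 CPM added (0.63). KPCA.C against KPCA.A had 0 of 7 called, where 1.65% were called higher and 0.88% lower, and the medians over the members were -0.43, 0.35 and 0.23 beside -0.05, 0.03 and -0.02 for all genes. In the largest fibroblast-like sub-cluster alone (71, 30 and 26 cells) Vegfa was 294, 87.3 and 375 CPM, and KPCA.B was 3.37-fold below KPCA.A (2.69 to 4.26). Nrp1 was 2.12-fold higher in KPCA.B than in KPCA.A (1.58 to 2.84) and was called under the stricter cell filter. Tumor epithelial markers summed to 510.2, 323 and 421 CPM in fibroblast-like cells, and their part in these values was not tested.

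The fibroblast-like sub-clusters carried different receptors. A sub-cluster led by Dpt and Clec3b held Nrp1 at 429, 308 and 221 CPM in 16, 17 and 12 cells and had 0, 0 and 2 UMIs of Flt1, where 3 UMIs would make 42.9, 20.1 and 9.21 CPM. The largest one held Nrp1 at 14.4, 24.2 and 13.8 CPM and Flt1 at 134, 244 and 212 CPM. The order held in all 3 tumors.

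In endothelial-like cells the receptors did not pass the limit in any comparison, where 1.25% to 2.62% of genes were called higher and 2.25% to 2.77% lower. Of 5 genes measured in KPCA.B over KPCA.A, 5 in KPCA.C over KPCA.A and 4 in KPCA.C over KPCA.B, 0 were called, and the medians of -0.22, -0.24 and -0.22 compare with -0.09, 0.00 and 0.10 over all genes. Kdr was at 0.949-fold (0.853 to 1.06), 0.656-fold (0.576 to 0.746) and 0.691-fold, and Flt1 at 0.808-fold (0.741 to 0.880), 0.601-fold (0.542 to 0.665) and 0.743-fold in that order. Nrp1 was at 1.02-fold, 1.03-fold and 1.01-fold and Flt4 at 0.850-fold, 0.836-fold and 0.984-fold. With 21 cells in KPCA.C, and sub-clusters in different numbers, the lower Kdr and Flt1 there cannot be told apart from the mix of cells sampled. The tip-gene sub-cluster held 344094 of the 381055 UMIs of these cells in KPCA.C, against 267703 of 531250 in KPCA.A. Within it Kdr was at 497, 831 and 785 CPM and Flt1 at 818, 1222 and 1008 CPM.

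Ascites held few transcripts of the family. Over its 2915 cells there were 37 UMIs of Vegfa, 37 of Vegfb, 21 of Pgf, 5 of Kdr, 4 of Flt1, 1 of Flt4, 108 of Nrp1 and 0 of Vegfc, and no class of endothelial-like cells. Macrophage-like cells held 62.2% of the Vegfa UMIs and 92.6% of the Nrp1 UMIs. The 14 tumor epithelial-like cells held 10 Vegfa UMIs, at 74.4 CPM (35.7 to 137).

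Ascites macrophage-like cells were lower than those of every tumor in Vegfa, Flt1 and Nrp1. Vegfa was 3.56 CPM (2.26 to 5.35) against 228, 15.3 and 268 CPM, which is 63.9-fold (42.4 to 101), 4.30-fold (2.76 to 7.01) and 75.1-fold (49.98 to 119) lower. Flt1 had a UMI in 0 of 2645 cells, where 3 cells would be 0.113%, and at the floor of 3 UMIs over the sum it was at least 139-fold, 161-fold and 94.3-fold lower. Nrp1 was 15.5 CPM (12.6 to 18.8), or 3.60-fold (2.87 to 4.56), 6.37-fold (5.17 to 7.91) and 3.47-fold (2.81 to 4.31) lower. Ascites lay below all 3 tumors in each of these, and the Vegfa call against KPCA.B ended with median-of-ratios scaling (log2 ratio -0.95) and with 20 CPM added (-0.58).

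The called genes were 4 of 5, 3 of 4 and 5 of 5 against KPCA.A, KPCA.B and KPCA.C, where 30.2%, 30.6% and 24.9% of all genes were called lower. A gene was measured only where both sums together reached the UMI limit for a call, and ascites gave few UMIs. Pgf, with 10 UMIs in ascites, was measured against KPCA.A (104 UMIs) and KPCA.C (452 UMIs). It was not measured against KPCA.B (32 UMIs). Flt1 was likewise measured through the tumor counts alone. The shares of members called and the members' medians given below are thus partly set by this limit. The Pgf call against KPCA.A ended with 20 CPM added (-0.81), and the Vegfb call against KPCA.C ended with median-of-ratios scaling (-0.74), 20 CPM added (-0.52) and the mean over cells (-0.94). Genes in general were often called lower here, with medians of -0.59, -0.60 and -0.53 that median-of-ratios scaling brought to -0.08, -0.14 and -0.12, and the members' medians were -1.80, -1.79 and -2.49. After thinning to 1000 UMIs, which left out 681 shallow cells, 0.255% of 1964 ascites cells had a Vegfa UMI, 1.53% a Nrp1 UMI and 0% a Flt1 UMI, where 3 cells would be 0.153%. These are limits on cells with a UMI at this depth, not on cells that express the gene. Nrp1 lay in some clusters of the ascites, with 56.6, 70.6 and 59.0 CPM in sub-clusters 3.0, 3.1 and 3.5, whose lead includes Cd163 and Mrc1. The large clusters 0 and 1, led by Prg4 and Alox15, held 9.83 and 4.22 CPM.

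The other genes of the pathway were 42 in a list of further ligands, angiopoietins, endothelial response genes, semaphorins, regulators, oxygen-sensing and signalling genes. In tumor epithelial-like cells of KPCA.B over KPCA.A 2 of 33 were called higher and 1 lower, with a median of 0.20. Of all genes, 3.01% were called higher and 2.67% lower. Sema3c, a semaphorin that binds neuropilins, was 3.98-fold higher (128.5 against 32.3 CPM) and Thbs1, an inhibitor of vessel growth, 3.53-fold higher, while Ccbe1, which helps to process VEGF-C, was at 0.0879 against 8.00 CPM. In KPCA.C over KPCA.A 4 of 37 were higher and 2 lower (median -0.01), where 2.42% and 3.16% of all genes were. Sema3a was at 10.7-fold, the endothelial gene Plvap at 5.57-fold and Angptl4 at 4.28-fold. KPCA.C over KPCA.B had 6 of 36 higher and 4 lower (median 0.13), where 4.62% and 6.08% of all genes were. Sema3a was at 8.07-fold, Sema3c at 0.182-fold and Epas1 at 0.0494-fold.

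In macrophage-like cells 1 of 19 list genes was called higher, where 2.79% of all genes were, and 3 lower in KPCA.B over KPCA.A (median -0.50). Mmp9, a protease that frees VEGF from matrix, was at 1.196 against 48.8 CPM and Egln3, an oxygen-sensing hydroxylase, at 32.8 against 112 CPM, while Epas1 was at 3.13-fold. In KPCA.C over KPCA.B it was 3 of 22 higher and 1 lower, where 2.37% of all genes were called lower (median 0.43), with Mmp9 at 19.6-fold, Egln3 at 5.88-fold and Thbs1 at 5.78-fold. KPCA.C over KPCA.A had 2 of 22 higher and 0 lower (median 0.08), with Epas1 at 4.67-fold, Thbs1 at 2.89-fold and Mmp9 at 0.481-fold.

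Fibroblast-like cells had 3 of 26 list genes called higher, where 2.53% of all genes were, and 5 lower in KPCA.B over KPCA.A (median 0.08), with Egln3 at 0.229-fold, the apelin ligand gene Apln at 0.308-fold and Egln1 at 0.321-fold. In KPCA.C over KPCA.B it was 4 of 27 higher and 2 lower, where 1.99% of all genes were called lower (median -0.02), with Egln3 at 3.42-fold, Egln1 at 3.41-fold and Sema3c at 0.246-fold. KPCA.C over KPCA.A had 2 of 27 higher and 0 lower (median -0.08), with the Tie2 ligand gene Angpt1 at 8.45-fold, Vegfd at 2.41-fold and Sema3a at 0.586-fold.

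In endothelial-like cells the list held genes that respond to VEGF in growing vessels. Esm1 was at 290 CPM in KPCA.A and 1001 CPM in KPCA.B, 3.45-fold higher, and Apln at 199.5 and 659 CPM, 3.30-fold higher. These were the 2 of 26 called higher, with 0 lower and a median of 0.00, and Cdh5 was at 0.631-fold. Of all genes, 1.25% were called higher and 2.25% lower. The tip-gene sub-cluster held 821 of the 892 Esm1 UMIs and 601 of the 635 Apln UMIs, and it made up a different part of the class in each tumor, with 15 of 92, 18 of 58 and 10 of 21 cells. The part of this mix in the differences was not tested. KPCA.C over KPCA.A gave 2 of 26 higher and 0 lower (median 0.16), with Apln at 2.76-fold, Esm1 at 2.29-fold and Tek, the Tie2 receptor, at 0.510-fold. In KPCA.C over KPCA.B it was 0 of 25 higher and 1 lower (median -0.05), with Tek at 0.449-fold, Cdh5 at 1.87-fold and Angptl4 at 1.66-fold. Of all genes, 1.53% were called higher and 2.77% lower in KPCA.C over KPCA.A, and 2.62% each way in KPCA.C over KPCA.B.

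Ascites macrophage-like cells had 3 of 19 list genes called higher and 11 lower against KPCA.A (median -1.45), 2 of 18 higher and 8 lower against KPCA.B (median -0.64) and 1 of 21 higher and 12 lower against KPCA.C (median -1.23). Of all genes, 7.17%, 6.09% and 5.2% were called higher and 30.2%, 30.6% and 24.9% lower, with medians of -0.59, -0.60 and -0.53. The median of the list against KPCA.B was thus near that of all genes. Thbs1, at 3256 CPM in ascites, was 6.12-fold and 12.2-fold higher than in KPCA.A and KPCA.B. Plxnd1, a semaphorin receptor that pairs with neuropilins, was at 5.11 CPM against 67.1 CPM in KPCA.A and 115 CPM in KPCA.B. Mmp9 was at 0.117-fold against KPCA.A and Cd2ap at 0.168-fold against KPCA.B, and against KPCA.C the leading genes were Egln3 at 0.131-fold, Egln1 at 0.151-fold and Hlx at 0.105-fold.

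Vegfa and Egln3 are known targets of hypoxia-inducible factors, so 20 further genes known to rise in low oxygen were read beside the members. In tumor epithelial-like cells 9 of 20 were called lower and 0 higher in KPCA.B relative to KPCA.A, with a median of -0.95, where 2.67% of all genes were called lower. Adm was at 3.51 against 98.1 CPM, Bnip3 at 46.1 against 240.5 CPM and P4ha2 at 27.7 against 116 CPM. KPCA.C over KPCA.B had 14 of 20 called higher, where 4.62% of all genes were (median 1.26), with Adm at 11.6-fold, Ankrd37 at 7.33-fold and Ero1l at 6.38-fold. Between KPCA.C and KPCA.A it was 0 higher and 1 lower (median 0.00), with Adm at 0.416-fold, Ero1l at 1.98-fold and Eno1 at 1.71-fold. The list and Vegfa thus had the same tumor at the bottom.

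Macrophage-like cells had 7 of the list lower in KPCA.B relative to KPCA.A, where 3.15% of all genes were (median -0.73), with Hilpda at 25.2 against 183 CPM, Adm at 4.35 against 42.3 CPM and Ndrg1 at 20.1 against 109.9 CPM. KPCA.C over KPCA.B had 11 higher, where 3.16% were (median 1.03), with Hilpda at 10.7-fold, Ndrg1 at 8.57-fold and Bnip3 at 4.48-fold, and KPCA.C over KPCA.A had 1 higher (median 0.44), Eno1 at 2.06-fold, with Ankrd37 at 1.65-fold and Ndrg1 at 1.57-fold. Fibroblast-like cells had 16 lower in KPCA.B relative to KPCA.A, where 3.48% were (median -1.32), with Ndrg1 at 36.5 against 408 CPM, Ero1l at 95.2 against 967 CPM and Slc2a1 at 19.3 against 160.2 CPM. KPCA.C over KPCA.B had 16 higher, where 4.12% were (median 1.48), with Car9 at 32.5-fold (11.04 to 159), Ndrg1 at 10.0-fold and Ero1l at 9.57-fold, and KPCA.C over KPCA.A had 1 higher (median 0.00), Car9 at 2.47-fold, with Pfkfb3 at 1.58-fold and Eno1 at 1.49-fold. Of the 4 classes compared between tumors, the 3 in which Vegfa of KPCA.B was called lower were also those with list genes called lower there.

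Endothelial-like cells, whose Vegfa counts were near the lowest, had 0 of 8 list genes called in KPCA.B over KPCA.A, with Ero1l at 0.516-fold, Pgk1 at 0.598-fold and Bnip3l at 0.637-fold. In KPCA.C over KPCA.A 1 of 9 was called higher, Adm at 2.79-fold, with Ndrg1 at 0.515-fold and Eno1 at 1.91-fold, and in KPCA.C over KPCA.B 2 of 8 were, Eno1 at 2.28-fold and Pgk1 at 2.06-fold, with Bnip3l at 1.69-fold. In these comparisons, in that order, 1.25%, 1.53% and 2.62% of all genes were called higher and 2.25%, 2.77% and 2.62% lower. In ascites macrophage-like cells 1 of 19 was called higher and 11 lower against KPCA.A, 4 and 5 of 19 against KPCA.B, and 0 and 14 of 20 against KPCA.C, with medians of -1.28, -0.37 and -1.50. Since 30.2%, 30.6% and 24.9% of all genes were called lower, the 5 of 19 against KPCA.B are no larger a share than that of all genes. Slc2a1, a glucose transporter, was at 12.1 CPM in ascites against 136, 54.7 and 188 CPM, and P4ha1 at 25.4 CPM against 199, 109.9 and 218 CPM. Ndrg1 was at 8.36 CPM against 109.9 CPM in KPCA.A and 172 CPM in KPCA.C, and Pfkfb4 at 8.05 CPM against 48.9 CPM in KPCA.B.

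Likeness was measured as Pearson's r of log2(CPM + 5) over the 23 sums of a class in a library that held at least 50 cells, among 12138 genes. These sums share libraries and depth, and r is given as a description. Vegfa was most like Inhba (0.87), Ak4 (0.84) and Egln3 (0.81), and Vegfb most like Anln (0.88), Reep6 (0.85) and Adgrl3 (0.85). Vegfc was most like Plod2 (0.91), Trpc1 (0.89) and Nhs (0.88), and Pgf most like Lrp5 (0.85), Mgst3 (0.84) and Ntn4 (0.82). Kdr was most like Ldb2 (0.99), Flt4 (0.98) and Nos3 (0.98), Flt1 most like Maoa (0.93), Jam2 (0.92) and Cav1 (0.91), and Nrp1 most like Iigp1 (0.87), Plxnd1 (0.86) and Git1 (0.85). Flt4 was most like Ccm2l, Nos3 and Unc45b, all at 0.99 or above. Among the members, Kdr and Flt4 had an r of 0.98, Pgf and Flt1 of 0.73, Kdr and Flt1 of 0.72, Vegfa and Vegfb of 0.51 and Vegfa and Kdr of -0.25. The value for Kdr and Flt4 rests on the few sums of endothelial-like cells.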

How the data were processed

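Raw UMI counts, 1 per gene and barcode, were deposited by the authors. Per the file headers the tumor matrices come from Cell Ranger 4.0.0 and the ascites matrix from 3.0.2, while the submitters' processing notes name version 3.1.0 and mm10. Identifiers, symbols and barcodes are other values, which the authors deposited in tables beside each matrix.

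Kept barcodes had 300 genes or more, 500 UMIs or more and no more than 15% of UMIs from mitochondrial genes. Doublets were called by Scrublet (scanpy 1.11.5; rate of 0.8% for each 1000 barcodes), which marked and removed 22 of 11253 cells (0.196%) and so has not worked. All libraries were clustered together without integration (2000 variable genes, 30 principal components, 15 neighbours, Leiden resolution 1, seed 1, mixed clusters split at 0.5), with 50 genes of the VEGF family and pathway kept out of the variable genes. Clusters were named by their 5 best markers, and tumor epithelial-like clusters needed Krt8 and Krt18 at 500 CPM and Cdkn2a at 200 CPM. Levels needed 10 cells and comparisons 20. Levels have exact Poisson, ratios exact conditional and shares exact Clopper-Pearson intervals. For a count of 0 the share or level that 3 counts would make is given instead. The scripts ran in python 3.11.15 with numpy 2.4.6, scipy 1.17.1, pandas 2.3.3, anndata 0.12.19, scikit-learn 1.9.0, igraph 0.11.9, leidenalg 0.10.2 and matplotlib 3.10.9, and were tested on simulated data. Positions are those of GENCODE vM21 on GRCm38, and promoters are from RefSeq on GRCm38.p6.

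Members, marker lists and gene lists were chosen with earlier results of these data known. All 8 members are named, and of each list the 3 genes with the largest absolute log2 ratio per comparison. For likeness the 3 genes of highest r per member are named. Alternatives were stricter and looser filters, removal of the highest 8% of doublet scores, the VEGF genes kept in the clustering, resolution 2, median-of-ratios scaling, 1 and 20 CPM added, the mean over cells and thinning to 2000 UMIs. Reading single clusters, and leaving out clusters of low UMIs, were added after seeing the data.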

Additional observations from a re-analysis of the deposited data

Results flagged for a closer look

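Barcodes over 15% mitochondrial UMIs, 3030, 754 and 997 in the tumors by line and 169 in ascites, enter none of the comparisons, yet some hold the members at 50 or more UMIs in all. In KPCA.A they held Vegfa at 253 CPM, Vegfb at 18.0 CPM, Vegfc at 8.21 CPM, Pgf at 27.6 CPM, Kdr at 7.90 CPM, Flt1 at 109 CPM and Nrp1 at 69.3 CPM. In KPCA.B they held Flt1 at 38.1 CPM and Nrp1 at 104 CPM, with Vegfa at 24.9 CPM from 47 UMIs. In KPCA.C they held Vegfa at 191 CPM, Vegfb at 17.8 CPM, Flt1 at 189 CPM and Nrp1 at 122 CPM. KPCA.B was the low tumor for Vegfa among these barcodes as well.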

How the results depend on the processing

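The classes at the top of the levels, out of 24 pairs of a member and a tumor, were those given above in 21 to 24 under the other filters and clusterings, and the first source was so in all 24. The class with the highest share of cells with a UMI was so in 15 of 24 after thinning to 1000 UMIs and in 19 after thinning to 2000. For the levels, resolution 2 put pericyte or smooth muscle-like cells highest in Pgf of KPCA.A (78.1 CPM) and KPCA.C (120 CPM). It also put mast cell-like cells highest in Vegfb of KPCA.B. Tumor epithelial-like cells became highest in Vegfa of KPCA.A under the stricter filter. Fibroblast-like cells became highest in Vegfc of KPCA.B with the highest doublet scores removed. Members called between tumors numbered 8 in tumor epithelial-like cells (6 to 9 under the alternatives), 4 in macrophage-like cells (3 to 5) and 3 in fibroblast-like cells, which became 6 under the stricter filter, with Pgf of KPCA.B over KPCA.A (log2 ratio -1.40), Kdr of KPCA.C over KPCA.B (1.47) and Nrp1 of KPCA.B over KPCA.A (1.15) added. In endothelial-like cells 0 became 1 with the mean over cells (Pgf of KPCA.C over KPCA.A, 1.68) and 2 in the tip-gene sub-cluster alone (Pgf of KPCA.B over KPCA.A, -1.21, and Nrp1 of KPCA.C over KPCA.A, 1.03), and the cause was not tested. Pgf of macrophage-like cells in KPCA.C over KPCA.B turned to -0.59 in cluster 10. Of the log2 ratios under the other settings 662 kept their side of the limit, 9 passed it and 13 fell below it. Among those chosen after seeing the data these were 125 and 13, and 7 lost the call, 2 of them for fewer than 50 UMIs and not for their size (-2.95 for Vegfa of macrophage-like cluster 13 and -1.11 for Pgf of cluster 2, KPCA.B over KPCA.A). The genes lower in ascites macrophage-like cells than in all tumors were 3, and 2 to 4 under the alternatives. Comparisons of KPCA.C endothelial-like cells were not run under the stricter filter (17 cells), or with doublet scores removed or the VEGF genes kept in the clustering (19 cells each). No paired analysis was possible because each group has 1 library. Depth limits ascites most, with a median of 2077 UMIs per cell, and the 21 endothelial-like cells of KPCA.C limit its receptor levels.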
